A study of Mus musculus with 2 samples.

Results

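The large heat shock proteins of the Hsp70, Hsp110, Hsp90 and Hsp60 classes, their DnaJ cochaperones and the heat shock factors were compared between fast and slow skeletal muscle fibres of the mouse. The genes were chosen by name alone, as those with a symbol that starts with Dnaj, Hspa, Hsp90, Hsph1, Hspd1, Hspe1, Hsf or Stip1. A matched probe was found for 71 of 72 such protein-coding genes, out of 23458 genes with a probe in all, and Dnajb5 was the gene for which none was matched. The symbol rule also took in Hsf2bp, which is named for binding a heat shock factor and is no such factor itself. RNA came from male mice heterozygous for a GFP-Myh7 allele (G/+), 8 animals aged 6 to 8 weeks, in which fibres with slow myosin fluoresce, and both pools carried this allele. The fast pool held 4447 single fibres without GFP from the extensor digitorum longus (EDL), a fast hind limb muscle, and the slow pool 1659 GFP-positive fibres from the soleus, a postural calf muscle. Each pool was hybridised to 1 microarray, so there was no replicate, no test was possible, and muscle of origin and fibre type differ together. For the slow sample the labels disagree, since the tissue entry gives the EDL while source and protocol give the soleus, which was used.

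Hsp70 proteins bind exposed hydrophobic stretches of unfolded proteins and release them in a cycle driven by ATP. DnaJ proteins, also called J-proteins or Hsp40s, deliver clients and stimulate the ATPase of Hsp70, while exchange factors such as the Hsp110 proteins free the bound ADP. Hsp90 acts later, on nearly folded clients that are handed over from Hsp70 by the adaptor Stip1. Some of these genes serve every cell at rest, and others are switched on by heat shock factor 1 when proteins unfold in the cytosol, or by the unfolded protein response when they do so in the endoplasmic reticulum (ER). In skeletal muscle of the rat, inducible Hsp70 is known to be more abundant in slow, oxidative fibres and to increase after exercise.

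On the fast array 52.3% of 59305 spots and on the slow array 50.9% were well above background by the scanner software's flag, and no spot was saturated. The fibre markers separated the pools, with all 5 slow-fibre markers at least 2-fold higher in the slow pool and all 5 fast-fibre markers in the fast pool. Levels are given below as processed spot intensities as deposited, without scaling between arrays, and can be compared only within a gene. Differences are log2 slow minus fast after each array was scaled to its 75th percentile, so that a value of 1 is a 2-fold higher level in slow fibres. The software error of such a difference lay between 0.20 and 0.32, with a median of 0.20 over the members measured. Its lowest and median values were both 0.204, so for most members it was nearly a constant. It is therefore no estimate of precision made for each gene, here or where ranges are given below. Repeated spots of 285 probes gave a median SD of 0.05. Differences between animals, or between repeated labellings, are in neither error.

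Of the 71 genes, 60 were well above background on both arrays, 1 on the slow array only and 10 on neither. In the slow pool 8 were at least 2-fold higher, 13.1% of the 61 measured, beside 10.7% of all 14644 genes measured. In the fast pool 5 were at least 2-fold higher, 8.20% of those measured, beside 14.3% of all genes. The 8 higher in slow fibres were the Hsp70 genes Hspa2, Hspa1l, Hspa1a, Hspa1b and Hspa5, the J-protein genes Dnajb4 and Dnajb1, and the ER Hsp90 gene Hsp90b1. Each of these 8 stayed past 2-fold under all 9 scalings and background corrections tried, which rework the same 2 arrays and replicate nothing. Hspa2, Hspa1l, Hspa1a, Hspa1b, Dnajb1 and Hsp90b1 rest on 1 probe each, and probes of Hspa1a, Hspa1b and Hspa1l may share signal. The 5 higher in fast fibres were Dnajc13, Hspa12b, Hsf2bp, Dnajb12 and Dnajc12, and each of them was within 2-fold under at least 1 of the 9. The remaining 47 of the 60 lay within 2-fold, and the median difference of the 60 was 0.25, beside 0.05 over all genes. The plot of differences by compartment shows where each gene lay.

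**Figure D1:**
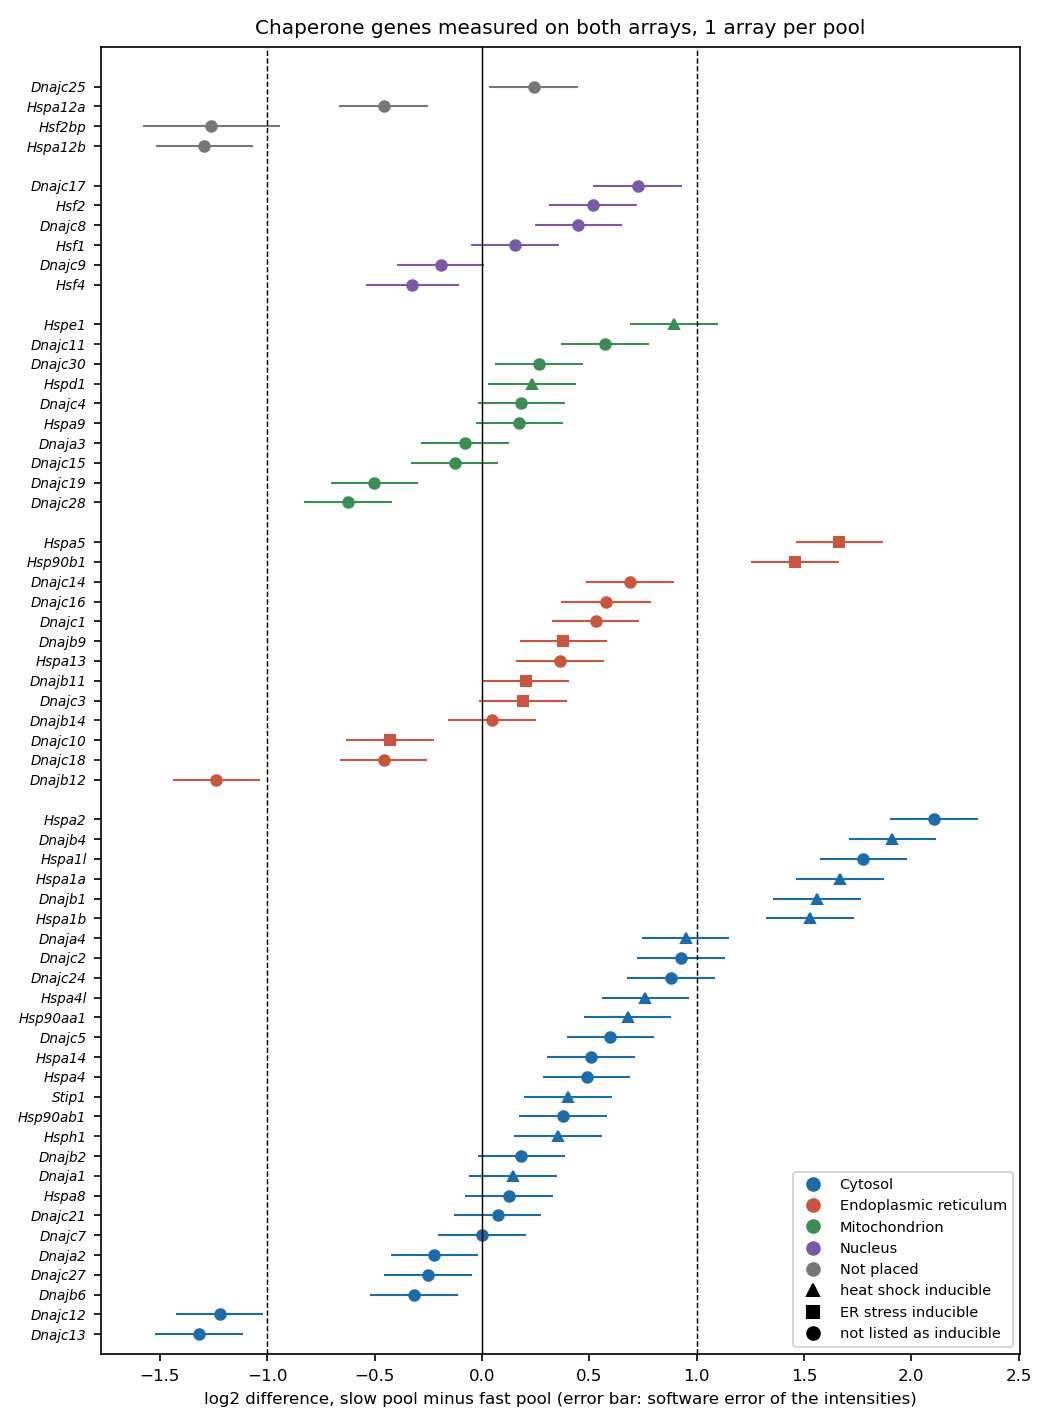
Log2 difference between the slow and the fast pool for the 60 genes measured on both arrays, grouped by compartment, with the software error of the intensities as the error bar and 1 array per pool. Dashed lines mark 2-fold. Past it towards the slow pool lie 6 cytosolic and 2 ER genes, 21.4% of 28 and 15.4% of 13 measured, beside 10.7% of all genes. None of the 10 mitochondrial genes lies past it in either direction, beside 10.7% of all genes towards the slow and 14.3% towards the fast pool.

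The heat-inducible Hsp70 genes were higher in slow fibres. Hspa1a, one of 2 genes that encode the inducible Hsp70 itself, had an intensity of 34645 in the fast pool and 118049 in the slow one, a difference of 1.67 or 3.18-fold (2.76 to 3.66 with the software error). Hspa1b, its near copy, stood at 10910 in the fast pool and 33787 in the slow one, 2.89-fold higher in slow fibres. Hspa1l, the adjacent gene known mainly from the testis, stood at 305 and 1123, 3.43-fold higher in slow fibres. Hspa1a and Hspa1b are near-identical in coding sequence and Hspa1l is closely similar, so a probe of one may also have bound transcripts of another, and the values are uncertain as separate measurements. All 3 genes pointed the same way, each by its only probe. Hspa2, another Hsp70 gene known from the testis, gave the largest difference of the 60, from 278 in the fast to 1286 in the slow pool, 4.31-fold (3.74 to 4.96 with the software error).

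The promoters of the inducible Hsp70 pair are shown because both genes lie 12918 bases apart on chromosome 17 and differed in the same direction. In the RefSeq promoter table of GRCm38.p6, which holds 250 bases before and 50 after each start, 56 of the 71 genes had an entry. The 2 promoters differed at 4 of 300 bases (98.7% identical), and the start of Hspa1l lay 547 bases from that of Hspa1a. Heat shock factor 1 binds alternating GAA and TTC units. On both strands, the 2-unit form GAANNTTC was in the promoter of 9.04% of 27025 genes and of 10 of the 56, and the 3-unit form GAANNTTCNNGAA, which contains it, in 0.662% of genes and in 4 of the 56, namely Dnajb6, Hspd1, Hspe1 and Hsph1. The 2-unit form began at position -104 in both Hspa1a and Hspa1b and at -124 in Dnaja1, a J-protein gene whose level differed by 0.14 only. The 4 genes with the 3-unit form had differences of 0.90 for Hspe1, 0.35 for Hsph1, 0.23 for Hspd1 and -0.32 for Dnajb6. The matches of Hspd1 and Hspe1 are the same bases between these neighbouring genes, read on opposite strands, and are not separate elements. In Hsph1 it lay after the start, at position 37 from the start used for the printed sequence, which holds 1 match. A match at position 16 was counted from another annotated start, and it may be the same element. Each sequence is printed from 5′ to 3′ on the strand of its gene, with the matched letters in capitals, and a match describes letters and shows no binding.
Hspa1a, chr17:34972213-34972300, minus strand: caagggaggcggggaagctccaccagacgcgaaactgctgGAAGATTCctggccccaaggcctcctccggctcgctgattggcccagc
Hspa1b, chr17:34959295-34959382, minus strand: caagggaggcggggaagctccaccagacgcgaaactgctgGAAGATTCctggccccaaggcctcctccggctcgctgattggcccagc
Dnaja1, chr4:40722304-40722391, plus strand: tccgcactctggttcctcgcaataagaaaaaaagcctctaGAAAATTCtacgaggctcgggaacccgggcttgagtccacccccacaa
Hspe1, chr1:55088053-55088082, plus strand: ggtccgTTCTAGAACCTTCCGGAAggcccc
Hsph1, chr5:149636287-149636308, minus strand: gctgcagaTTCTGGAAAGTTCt

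Other cytosolic Hsp70 genes differed little. Hspa8, which encodes the constitutive Hsc70, stood at 35790 in the fast pool and 41871 in the slow one, a difference of 0.12, and its 4 probes ranged from 0.05 to 0.18. The difference of Hspa1a exceeded that of Hspa8 by 1.54 (software error 0.29), a 2.91-fold shift of the inducible relative to the constitutive gene, and lay between 1.54 and 1.70 under the scalings tried. For Hspa1b the excess over Hspa8 was 1.40. Hspa14, whose product works at the ribosome, stood at 1085 and 1655, a difference of 0.51.

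The Hsp110 genes, exchange factors for Hsp70, all lay within 2-fold. Hspa4 stood at 7447 in the fast pool and 11201 in the slow one, a difference of 0.49, and Hspa4l at 241 and 439, a difference of 0.76. Hsph1, like Hspa4l listed as heat-inducible, stood at 3790 and 5194, a difference of 0.35, with 0.39 and -0.08 by its other 2 probes, the last of these a dim one. Among 10 genes of other exchange factors, 3 were past 2-fold towards the slow pool and 1 towards the fast pool, beside 10.7% and 14.3% of all genes, and with normexp background correction 1 and 1. Bag2, which also inhibits the ubiquitin ligase Stub1, was 3.08-fold higher in slow fibres, at 880 and 2909. Bag4 was well above background in the slow pool only and at least 3.75-fold higher there, a bound that dropped to 0.36 on the log2 scale in the lowest of the 9 settings. Hyou1, the ER exchange factor, was 2.48-fold above the fast pool by its brightest, still dim probe, at 14.4 and 38.3, while another probe gave -0.27 and the lowest setting 0.41. Grpel2, one of 2 mitochondrial exchange factor genes, was 2.83-fold higher in fast fibres, at 2230 and 845.

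Among the J-protein genes measured on both arrays, Dnajb4 and Dnajb1 of class B had the largest differences. Dnajb4, a cytosolic J-protein induced by heat, stood at 2748 in the fast pool and 11098 in the slow one, 3.76-fold higher in slow fibres (3.27 to 4.34 with the software error). Its other 2 probes gave 1.52 and 1.76, so all 3 lay past 2-fold. Dnajb1, the principal stress-induced partner of Hsp70, stood at 16905 and 53510, 2.95-fold above the fast pool by its single probe. The difference of Dnajb4 exceeded that of Dnajb1 by 0.35 (software error 0.29).

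Dnajb6, which in humans is mutated in a limb-girdle muscular dystrophy, stood at 5416 in the fast pool and 4667 in the slow one, a difference of -0.32, with 5 probes from -0.54 to 0.04. Dnajb2, a J-protein known from neurons, stood at 2692 and 3281, a difference of 0.18.

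Among the class A J-proteins, which resemble bacterial DnaJ most closely, none was past 2-fold, although Dnaja4 passed it at 1.37 under spike-in scaling, 1.06 with normexp and the 75th percentile, and 1.05 by the median over probes. Dnaja4, which is heat-inducible and abundant in muscle and heart, stood at 9820 in the fast pool and 20338 in the slow one, a difference of 0.95, and its dimmer probe gave 1.15. Dnaja1, the general cytosolic class A protein, stood at 9543 and 11320, a difference of 0.14. Dnaja2, which shares its tasks, stood at 3040 and 2796, a difference of -0.22 that turned positive under spike-in scaling.

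**Figure D2:**
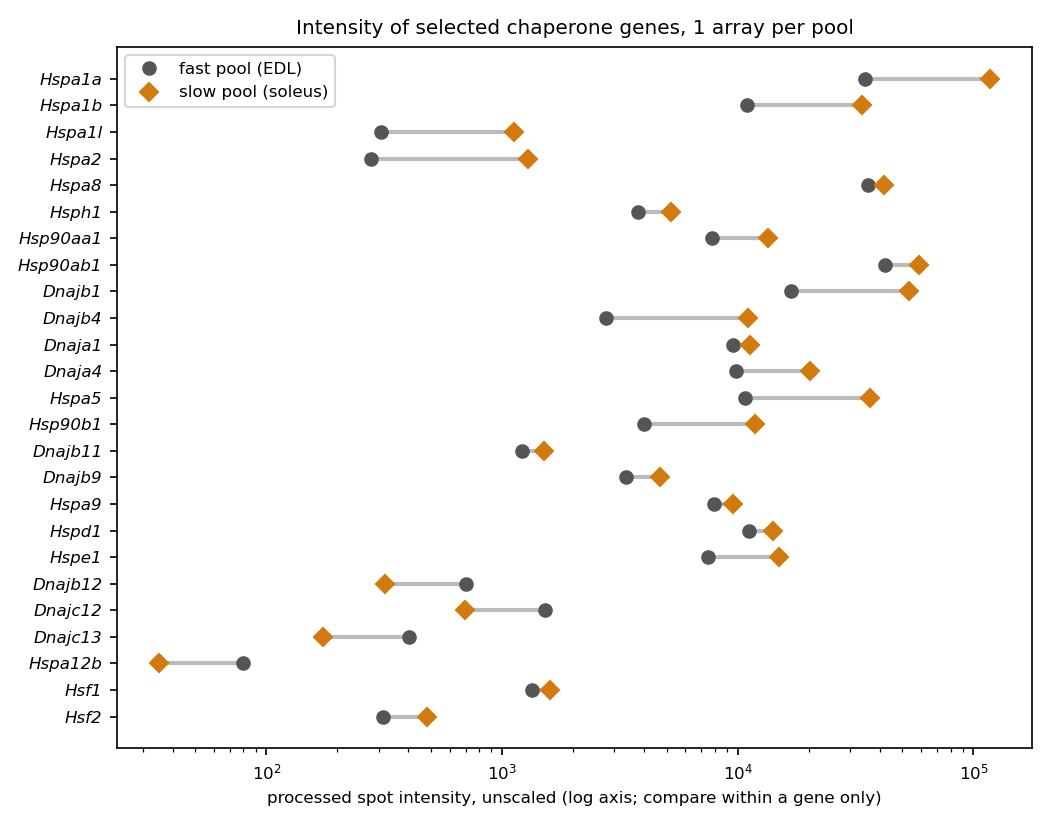
Processed spot intensity, unscaled and on a log axis, in the fast pool (circles) and the slow pool (diamonds) for 25 chaperone and heat shock factor genes, 1 array per pool. Hspa1a, Dnajb1, Dnajb4, Hspa5 and Hsp90b1 are far apart between the pools, whereas Hspa8, Dnaja1, Hspa9 and Hspd1 nearly overlap, and points of different genes should not be compared.

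The cytosolic Hsp90 genes were within 2-fold. Hsp90aa1, the inducible form, stood at 7798 in the fast pool and 13392 in the slow one, a difference of 0.68, and its other probe gave 0.66. Hsp90ab1, the constitutive form, stood at 42214 and 58853, a difference of 0.38. The inducible form exceeded the constitutive one by 0.30, close to the software error of 0.29, and by 0.08 to 0.37 under the scalings tried. Stip1, the adaptor between Hsp70 and Hsp90, stood at 1165 and 1650, a difference of 0.40.

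Of 16 other Hsp90 cochaperone genes, 2 were past 2-fold towards the slow pool and none towards the fast pool, 12.5% against 10.7% of all genes, with a median of 0.15. The count was 0 with the authors' deposited value table and with normexp followed by quantile normalization. Fkbp5, a glucocorticoid-induced immunophilin, was 2.15-fold higher in slow fibres, at 280 and 646, and its other probe gave 1.23. Cdc37l1, a relative of the kinase adaptor Cdc37, was 2.02-fold higher, with 5 probes from 0.38 to 1.09. Unc45b, the muscle myosin chaperone that works with Hsp90 and named here after its value was seen, stood at 19622 in the fast pool and 13522 in the slow one, a difference of -0.64. The 15 genes of the cytosolic chaperonin and of prefoldin, which pass actin and tubulin to it, held none past 2-fold. Of all genes, 10.7% were past it towards the slow pool and 14.3% towards the fast pool. The median was 0.25 over the 14 detected in both pools.

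By inducibility, the 12 genes listed as targets of the heat shock response all had differences above 0, as did 6801 of all 12846 genes measured on both arrays. They ran from 0.14 for Dnaja1 to 1.91 for Dnajb4, with a median of 0.83. All 12 stayed above 0 under the 9 scalings and background corrections tried, and 4 of them, Dnajb4, Hspa1a, Dnajb1 and Hspa1b, were past 2-fold, 33.3% beside 10.7% of all genes. Hspa1a and Hspa1b count here as separate genes, although a probe of one may have bound transcripts of the other. The other 8 of the 12 were Dnaja4, Hspe1, Hspa4l, Hsp90aa1, Stip1, Hsph1, Hspd1 and Dnaja1, in falling order, so the response genes covered a wide range. The 6 genes listed as targets of the ER stress response had a median of 0.29, with 2 past 2-fold in slow fibres, 33.3% of the 6. The 53 genes on neither list, of which 42 were measured on both arrays, had a median of 0.17. They held 2 past 2-fold in slow fibres, Hspa2 and Hspa1l, and the 5 that were higher in fast fibres. These were 4.65% and 11.6% of the 43 measured on at least 1 array, beside 10.7% and 14.3% of all genes. The histogram of all genes with the members beneath shows these 3 groups against the background.

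**Figure D3:**
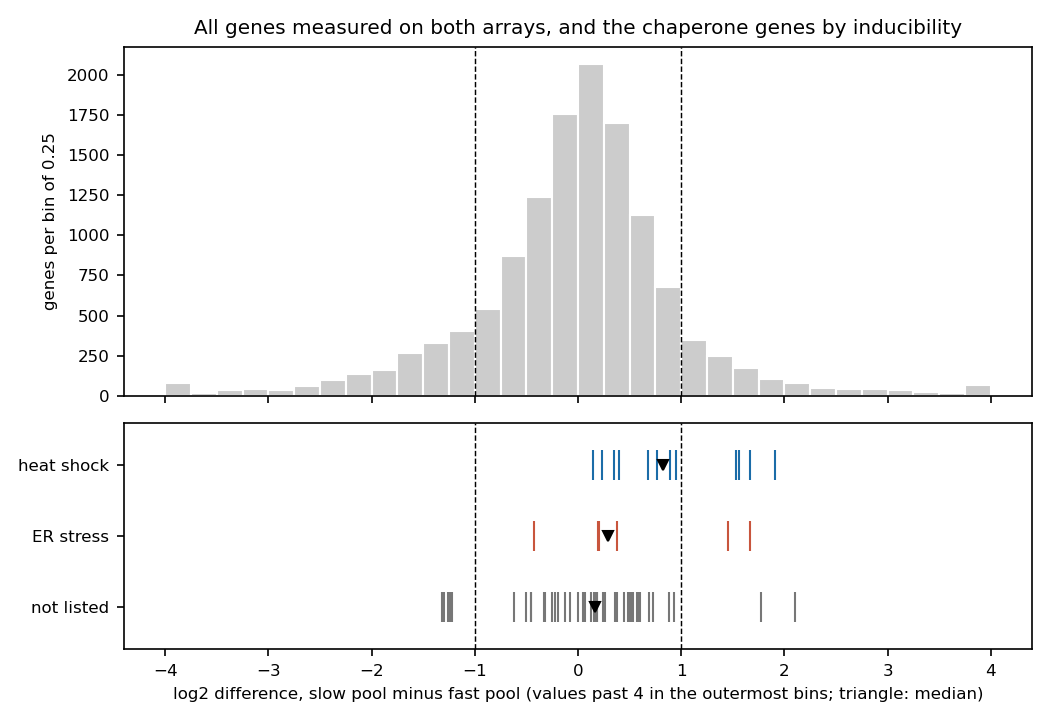
Number of genes per bin of 0.25 in log2 difference for all 12846 genes measured on both arrays (top), and the members by listed inducibility, 1 tick per gene with the median as a triangle (bottom). The heat shock ticks run from 0.14 to 1.91 and all lie right of 0, while the 42 ticks of genes not listed straddle 0.

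By compartment, the 27 cytosolic genes measured on both arrays had a median of 0.49, with 6 past 2-fold in slow and 2 in fast fibres. These were 21.4% and 7.14% of the 28 cytosolic genes measured on at least 1 array, beside 10.7% and 14.3% of all genes. The 6 include Hspa1a, Hspa1b and Hspa1l, which may not be separate measurements. Of the 27, the 17 not listed as heat-inducible had a median of 0.18. The 13 ER genes had a median of 0.36, the 10 mitochondrial genes 0.18 and the 6 nuclear genes 0.30. Under spike-in scaling, which moved the median of all genes up by 0.42, each of these medians was higher by the same amount. Under at least 1 of the 9 settings, 10 members changed sign, namely Dnaja2, Dnaja3, Dnajb6, Dnajb14, Dnajc7, Dnajc9, Dnajc15, Dnajc21, Dnajc27 and Hsf4.

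In the ER, Hspa5 and Hsp90b1 had larger differences than the J-protein genes and than Hspa13, another Hsp70 relative. Hspa5, which encodes BiP, the ER Hsp70, stood at 10739 in the fast pool and 36556 in the slow one, 3.17-fold higher in slow fibres (2.75 to 3.66 with the software error), and its 3 probes gave 1.57 to 1.76. Hsp90b1, which encodes Grp94, the ER Hsp90, stood at 4012 and 11828, 2.75-fold higher in slow fibres. Dnajb11, a J-protein that brings unfolded clients to BiP, stood at 1219 and 1506, a difference of 0.20, with -0.15 by another probe. The difference of Hspa5 exceeded that of Dnajb11 by 1.46 (software error 0.29). Dnajb9, a J-protein strongly induced by ER stress, stood at 3355 and 4683, a difference of 0.38.

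Dnajc3, a lumenal cochaperone of BiP, stood at 151 and 185, a difference of 0.19. Dnajc10, a reductase that opens disulfides in proteins bound for degradation, stood at 383 and 305, a difference of -0.43, and gave 0.44 and -0.19 by its dim probes. Hspa13, a microsomal Hsp70 relative, stood at 178 and 246, a difference of 0.36. Of the membrane J-proteins, Dnajb12, which acts with Hsc70 in the disposal of ER proteins, stood at 703 in the fast pool and 320 in the slow one, 2.36-fold higher in fast fibres, with -0.90 by its other probe. Dnajc18, a related protein, stood at 919 and 718, a difference of -0.46, while its other probe pointed the opposite way at 0.89. The other ER members, Dnajb14, Dnajc1, Dnajc14 and Dnajc16, had differences from 0.05 to 0.69.

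The promoters of Hspa5, Hsp90b1 and Dnajc3 are shown because they are the 3 members that hold the ER stress element, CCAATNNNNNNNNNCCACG, which was searched after the values were seen. It was found on either strand in the promoter of 0.137% of genes, 37 in all. Hspa5 held it at position -65 and Dnajc3 at -105, and Hsp90b1 held it at -212 and, on the opposite strand, at -107. The 3 genes with the element thus had differences of 1.67, 1.46 and 0.19. Capitals mark the element.
Hspa5, chr2:34771985-34772083, plus strand: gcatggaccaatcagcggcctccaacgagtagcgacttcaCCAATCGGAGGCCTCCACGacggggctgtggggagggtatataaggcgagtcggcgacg
Hsp90b1, chr10:86705493-86705694, minus strand: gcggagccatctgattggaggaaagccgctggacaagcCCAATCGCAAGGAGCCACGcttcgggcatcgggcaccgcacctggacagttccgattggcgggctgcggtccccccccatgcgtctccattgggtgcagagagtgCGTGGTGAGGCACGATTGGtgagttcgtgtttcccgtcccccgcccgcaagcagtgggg
Dnajc3, chr14:118937787-118937885, plus strand: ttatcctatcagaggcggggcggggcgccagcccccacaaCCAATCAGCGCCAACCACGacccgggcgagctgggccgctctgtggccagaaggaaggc

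Other genes of ER folding and stress were measured beside the members. Of 19 such genes, 8 were past 2-fold towards the slow pool and 1 towards the fast pool, beside 10.7% and 14.3% of all genes, and their median was 0.90. The 8 were 7 to 12 under the 9 settings and the 1 was 0 with normexp. Manf, a secreted protein that is induced by ER stress and binds BiP, was 4.18-fold higher in slow fibres, at 523 and 2346. Pdia4, a disulfide isomerase, was 3.94-fold higher, at 47.3 and 200. Eif2ak3, which encodes the stress sensor PERK, was 3.06-fold higher in fast fibres by its brightest probe, at 149 and 52.3, and gave 0.54 by its other probe. The following genes are named after their values were seen. Creld2 was 3.85-fold, Syvn1 2.81-fold and Trib3 2.85-fold above the fast pool, whereas Ddit3 and Atf4, transcription factors of the PERK branch, gave 0.05 and -0.29. The lectin chaperones Calr and Canx gave 0.75 and 0.97, and Xbp1, the transcription factor activated by splicing in the unfolded protein response, gave 0.66 without a measure of the spliced form.

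**Figure D4:**
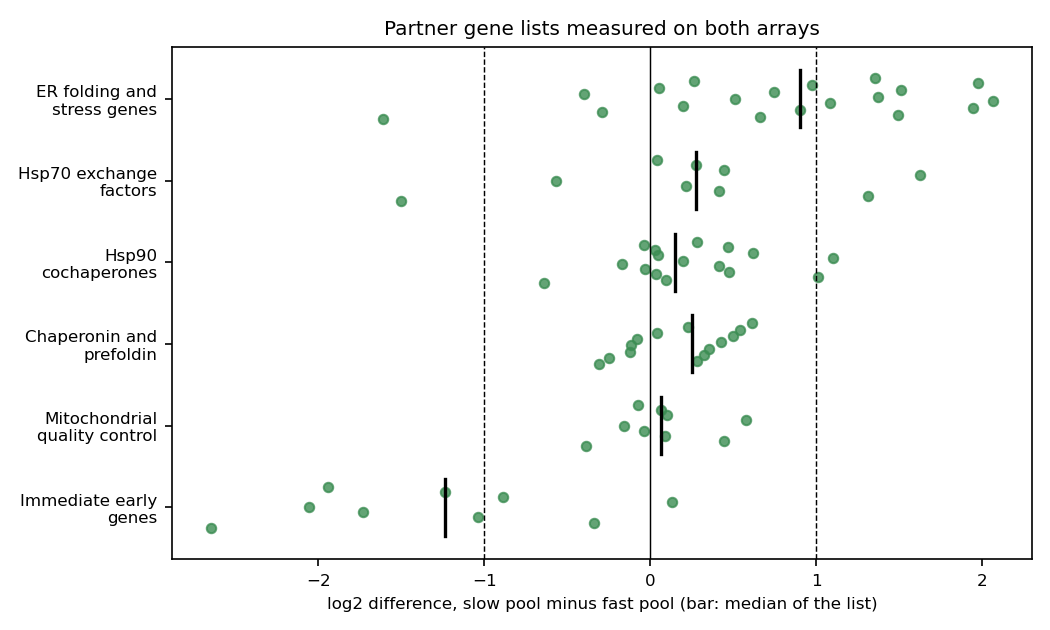
Log2 difference between the slow and the fast pool for genes of 6 partner lists measured on both arrays, 1 point per gene with the list median as a bar. The ER folding and stress genes have a median of 0.90, the other chaperone lists lie between 0.06 and 0.28, and the immediate early genes have a median of -1.24.

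None of the 10 mitochondrial members was past 2-fold, with differences from -0.62 to 0.90, although Hspe1 passed it under spike-in scaling. Of all genes, 10.7% were past it towards the slow pool and 14.3% towards the fast pool. With 10 genes the absence of any carries little weight. Hspe1, the Hsp10 lid of the matrix chaperonin, stood at 7487 in the fast pool and 14939 in the slow one, a difference of 0.90, and its other probes gave 0.51 and 0.71. Hspd1, the Hsp60 barrel it closes, stood at 11171 and 14082, a difference of 0.23. The 2 genes are divergent neighbours on chromosome 1, with the nearest annotated starts 95 bases apart, and their differences were 0.66 apart (software error 0.29). Hspa9, the matrix Hsp70 mortalin, stood at 7904 and 9573, a difference of 0.17, and -0.02 by its other probe. Its J-protein Dnaja3 stood at 4488 and 4555, a difference of -0.08.

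The mitochondrial import and membrane J-proteins pointed both ways. Dnajc19, a subunit of the import motor that is mutated in a human cardiomyopathy syndrome, stood at 16883 in the fast pool and 12794 in the slow one, a difference of -0.50. Its second probe gave -0.53 and a dim one 0.99. Dnajc15, its paralog, stood at 9556 and 9383, a difference of -0.13. Dnajc11, which associates with the complex that shapes the cristae, stood at 140 and 224, a difference of 0.57, and Dnajc28 at 459 and 320, a difference of -0.62. Dnajc4 and Dnajc30 gave 0.18 and 0.27. Of 9 other genes of mitochondrial protein quality control, none was past 2-fold, beside the same 10.7% and 14.3% of all genes. Their median was 0.06.

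The remaining class C J-proteins, whose products have specialised sites of action, included no gene at least 2-fold higher in slow fibres. Dnajc12, a cochaperone of the aromatic amino acid hydroxylases, stood at 1516 in the fast pool and 697 in the slow one, 2.33-fold higher in fast fibres. Dnajc13, an endosomal protein, stood at 405 and 174, 2.49-fold higher in fast fibres, whereas its other, dim probe gave 0.60 at 11.4 and 18.5. Dnajc5, the cysteine string protein of secretory vesicles, stood at 1405 and 2282, a difference of 0.60. Dnajc7, a cochaperone of both Hsp70 and Hsp90, stood at 4422 and 4741, a difference of 0.00. Just inside 2-fold, and named after their values were seen, Dnajc2, a ribosome-associated J-protein, and Dnajc24, which acts in diphthamide synthesis, had differences of 0.93 and 0.88. Dnajc21, Dnajc25 and Dnajc27 gave 0.07, 0.24 and -0.25, with 1.40 by a dim probe of the last.

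Hspa12b, a distant Hsp70 relative known from endothelial cells, stood at 79.7 in the fast pool and 34.9 in the slow one, 2.45-fold higher in fast fibres. Beside it, all 6 endothelial markers were lower in the slow pool, 5 of them at least 2-fold (3 with normexp), and their summed intensity was 2843 in the fast pool and 584 in the slow one. All 6 were well above background in both pools. Markers of other non-muscle cells also leaned to the fast pool, with at least 2-fold higher levels for 6 of 6 fibroblast, 4 of 4 erythrocyte and 4 of 4 Schwann cell genes that had a matched probe. The same held for 2 of 3 immune genes measured and for 2 of 4 of smooth muscle and pericytes, and the 1 satellite cell gene measured gave 0.60. The share of all genes at least 2-fold higher in the fast pool was 14.3%. With normexp the fibroblast, erythrocyte and Schwann cell counts fell to 4, 3 and 2, and under spike-in scaling to 5, 2 and 3. Summed intensities in the fast and slow pool were 27961 and 7343 for the fibroblast, 16968 and 6796 for the erythrocyte, 2890 and 810 for the immune and 809 and 253 for the Schwann cell genes. Those of smooth muscle and pericytes were nearly equal, at 141136 and 137446. Most of this was Acta2, at 139689 and 136890, with a difference of -0.13. The rest of that list, Rgs5, Notch3 and Myh11, gave -1.62, -1.27 and -0.64. The part of such cells in the differences of Hspa12b and the other members was not tested, and fewer cells of a type and less RNA per cell cannot be told apart in pooled RNA. Hspa12a, its paralog, stood at 145 and 114, a difference of -0.46. Hsf2bp, a protein of meiotic recombination, stood at 26.3 and 11.8, 2.40-fold higher in fast fibres, and its other probe of similar brightness gave 0.17.

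The transcription factors of the response were within 2-fold. Hsf1, the principal activator after heat, stood at 1338 in the fast pool and 1598 in the slow one, a difference of 0.16. Hsf2, which joins it and acts in development, stood at 311 and 478, a difference of 0.52. Hsf4, known from the lens, stood at 57.3 and 49.1, a difference of -0.32 that turned positive under spike-in scaling. Hsf3 and Hsf5 did not stand well above background in either pool. The activity of Hsf1 depends on trimer formation and phosphorylation, which transcript levels do not measure. The nuclear J-proteins spanned -0.19 for Dnajc9, a histone cochaperone, to 0.73 for Dnajc17, a splicing protein, with Dnajc8 at 0.45.

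The 10 genes not well above background on either array were Dnajb7, Dnajb8, Dnajb13, Dnajc5b, Dnajc5g, Dnajc6, Dnajc22, Hsf3, Hsf5 and Hsfy2, several of them known from testis. Dnajb3, likewise a testis gene, was well above background in the slow pool only, at 13.7 against 1.84, and at least 1.77-fold higher there. This bound, 0.82 on the log2 scale, was 0.20 with normexp and the 75th percentile.

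Probes of one gene did not always point the same way. Of the 32 members with 2 or more probes measured on both arrays, 10 had probes on both sides of 0, and the median spread between the lowest and highest probe was 0.23. For Dnajb4, Hspa5, Hspe1, Hspa4l and Hspa8 all probes lay on one side of 0. Spreads over 1 occurred in Dnajc27, Dnajc13, Dnajc19, Dnajc18 and Hsf2bp, and Dnajc13 and Hsf2bp of these were among the 5 higher in fast fibres.

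**Figure D5:**
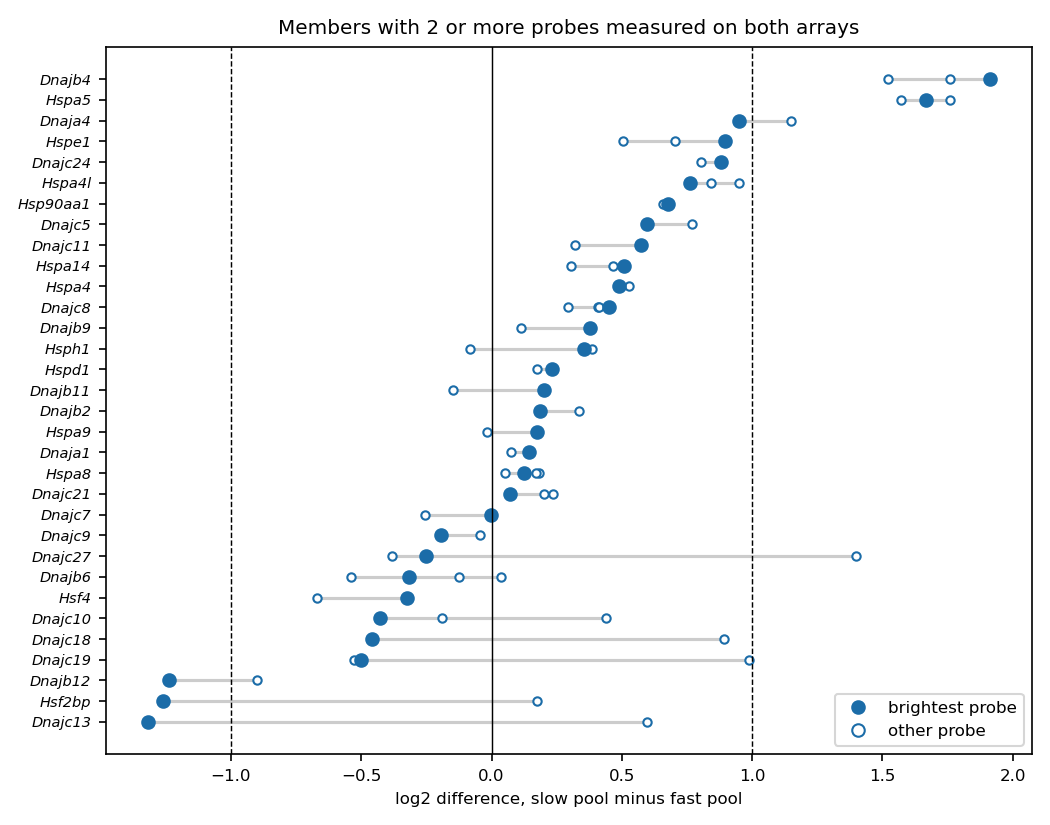
Log2 difference between the slow and the fast pool for each probe of the 32 members with 2 or more probes measured on both arrays. Filled points are the brightest probe that represents the gene and open points the others; the probes of Dnajb4 and Hspa5 all lie past 2-fold, whereas those of Dnajc13 lie at -1.32 and 0.60.

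Single fibres were released from the muscle before RNA was isolated, and genes that respond within minutes to such handling were measured beside the chaperones. Of 9 immediate early genes, 6 were at least 2-fold higher in the fast pool and none in the slow pool, beside 14.3% and 10.7% of all genes. Their median was -1.24. The count of 6 fell to 5 with quantile normalization and with normexp, and to 4 under spike-in scaling. Egr2 was the lowest, at 9164 in the fast pool and 1569 in the slow one, 6.27-fold higher in fast fibres, and Jun gave 0.13. The summed intensity of the 9, unscaled, was 207742 in the fast pool and 113132 in the slow one. Handling time and temperature of the 2 muscles are not given in the sources used here, and their part in the chaperone differences was not tested.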

How the data were processed

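Spot intensities on a linear scale were deposited by the authors. Per the file headers, Agilent Feature Extraction subtracted background and detrended every array by itself, with no normalization between them, and the submitters' processing notes give its version as 12.0.3.1. Software errors of the intensities, median spot and local background intensities and flags came from the same deposited files. The authors' deposited value table held the processed intensity times 2.83 on the fast and 2.45 on the slow array, unlogged and uncentred, with column medians of 30.1 and 27.1, and what it is scaled to stays unknown. The arrays shared 1 slide and 1 scan. RNA input was 0.1 µg, per the labels' protocols.

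Control spots and 159 outlier spots were left out, repeated spots were averaged, and log2 processed signals were scaled to the 75th percentile of each array. That percentile was taken over all single non-control spots, with the outlier spots included. Probe accessions, unversioned, were matched to RefSeq genes of GRCm38.p6 for names only, since the array design refers to mm9, and 33763 of 56596 probes (59.7%) matched 23458 genes. The brightest probe by mean intensity stood for a gene. A gene above background on 1 array got a bound, computed from its bright value over its dim value or, if higher, over the lowest signal called above background. With 1 array per group the size rule was 2-fold. Precision is limited by the number of arrays. The calculation was tested on simulated data.

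The members, the other gene lists, and the lists of compartment and inducibility, which rest on textbook knowledge, were chosen with earlier results of these data known. Named were every member past 2-fold, a set list of well-known members, the outermost 2 per direction and compartment, and up to 4 genes past 2-fold per other list. Alternatives changed the scaling, the background correction (normexp, offset 50), the source of the values, the treatment of dim probes, the choice of probe and the size rule. Python 3.11.15, pandas 2.3.3, statsmodels 0.14.6, R 4.3.3 and limma 3.58.1 were used.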

Additional observations from a re-analysis of the deposited data

How the results depend on the processing

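The 8 members past 2-fold towards the slow pool stayed there under all 9 scalings and background corrections, and the count of such members was 19 under spike-in scaling, 18 with a 1.5-fold and 5 with a 3-fold size rule. The 5 members higher in fast fibres depended more on the choice. Their count was 0 under spike-in scaling, 2 and 3 with normexp followed by the 75th percentile and by quantile normalization, 3 by the median over probes and 0 with the 3-fold rule. Hspa12b and Hsf2bp, dim genes, were past 2-fold in 6 of the 9, Dnajc13 in 7, and Dnajb12 and Dnajc12 in 8. Spike-in scaling, which rests on 8 of 10 controls and shifts all genes, raised the median difference of all members to 0.68, of the heat-inducible genes to 1.25, of the ER genes to 0.79 and of the mitochondrial genes to 0.60. Of 61 members measured on at least 1 array, the probe median moved 4, among them Dnajc18 from -0.46 to 0.22, quantile normalization 2, normexp 7 or 8, the lack of a filter on dim probes 1 and spike-in scaling 60 by more than the software error. The authors' value table lowered the median of all genes by 0.11. The causes of these shifts were not tested. No paired analysis was possible because each group has 1 array.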
